A study of Mus musculus with 6 samples.

Results

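The 8 genes described here, of the colony stimulating factor 1 receptor axis and of macrophage residency, were followed through single cells of mouse sciatic nerve. They were taken by symbol from the deposited count table and are 8 of its 32285 gene symbols: the ligands Il34 and Csf1, their shared receptor Csf1r, and Cx3cr1, Mrc1, Cd163, F13a1 and Ccr2. The nerves came from 23-week-old C57BL6/J mice fed standard diet (SD) or high fat diet (HFD). Before the droplet-based 3' libraries were made, cells were pulled down with magnetic beads against O4, a lipid antigen of Schwann cells and oligodendrocytes, so every cell in both diets had passed this step and every sample is labelled as Schwann cells. The labels name 6 samples, 3 per diet, and HFD replicate 3 was not analysed here, which leaves 3 SD and 2 HFD libraries. The labels do not tie samples to animals, and the p-values below therefore describe only sample-to-sample spread, part of which may be technical.

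Macrophages depend on Csf1r, a receptor tyrosine kinase, for survival and proliferation. It has a pair of ligands, Csf1 and interleukin 34, that differ in where they are made: Il34 is best known from neurons and from keratinocytes, where it maintains microglia and Langerhans cells, and Csf1 is made by many stromal cells. Peripheral nerve holds resident macrophages in the endoneurium, among the axons, and in the epineurium around the nerve. Cx3cr1, the fractalkine receptor, is known as a marker of many resident macrophages and microglia. Mrc1 (the mannose receptor CD206), Cd163 (the haemoglobin-haptoglobin scavenger receptor) and F13a1 (the A subunit of coagulation factor XIII) are known from macrophages of tissue borders and connective tissue. Ccr2, a chemokine receptor, marks monocytes and cells recently derived from them.

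The table held 364 cells, 201 on SD and 163 on HFD, with 37744 to 349450 UMIs (distinct molecules) per library and 122 to 24932 per cell. The authors deposited 5 clusters, called here by number. Cluster 0 (143 cells, deposited as macrophages) held UMIs of all 15 markers of a macrophage list, at 27456 ± 3141 CPM (UMIs of the list scaled by all UMIs of those cells; mean ± SD, n = 5 libraries), against 92.7 ± 49.2 in cluster 2. Cluster 2 (60 cells) is deposited under the name SCP, but a list of 14 myelinating Schwann cell genes stood at 50138 ± 9813 CPM there and at 752 ± 738 CPM in cluster 0. Cluster 1 (92 cells, deposited as mySC) held the same genes at 33822 ± 27591 CPM, and cluster 4 (24 cells, deposited as nmSC) was led by fibroblast genes, at 52953 ± 31536 CPM (n = 4). Cluster 3 (45 cells, deposited as repairSC) had a median of 261 UMIs per cell. No barcode was shared between libraries. In cluster 3, 36 barcodes ended in the same 9 bases, and they held 2 UMIs of the 8 genes. Outside cluster 0, 5 cells, 4 from HFD replicate 1 and 1 from HFD replicate 2, carried at least 50 UMIs of the neutrophil genes S100a8 and S100a9 and are called neutrophil-like. The cells were clustered by the authors on their expression, which includes these genes, so differences between clusters are described without a test.

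On GRCm38 (mm10), RefSeq places Il34 on chr8:110741829-110805949, Csf1 on chr3:107741048-107760469, Csf1r on chr18:61105572-61131139 and Cx3cr1 on chr9:120048683-120068296. Mrc1 lies on chr2:14229414-14332023, Cd163 on chr6:124304636-124330529, F13a1 on chr13:36867178-37050244 and Ccr2 on chr9:124101918-124109140. All are protein-coding. In the GENCODE annotation of the same build, genes on the opposite strand overlap Il34, Csf1r, Cx3cr1 and F13a1. Whether reads were counted by strand is not given in the sources used here, so reads of genes overlapping on opposite strands cannot be told apart without it. For genes overlapping on the same strand, strand would not separate the reads. The overlapping genes held few UMIs, with 1 for Gm15894 over Il34, 18 for Hmgxb3 over Csf1r, and 66 for Csrnp1, on the same strand as Cx3cr1.

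Il34 was a gene of the myelin gene clusters. Of its 69 UMIs in 28 cells, 65 (94.2%) lay in 24 cells of cluster 2 and 4 in 4 cells of cluster 1. None lay among the 582071 UMIs of cluster 0, where 3 counts would be 5.15 CPM. The pooled level in cluster 2 was 260 CPM (exact 95% Poisson interval 201 to 332), at least 50.5-fold higher than that floor and 11.8 times the 22.1 CPM of cluster 1. That ratio depends on the mix of libraries, since the 112147 UMIs of cluster 1 on HFD held no Il34. On SD alone, cluster 1 stood at 57.9 CPM (4 UMIs) and cluster 2 at 338 CPM. Clusters 3 and 4 also held no Il34, with higher floors of 61.5 and 31.9 CPM. With each library given equal weight, 96.6% of Il34 lay in cluster 2.

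In cluster 2, 40% of cells had an Il34 UMI (24 of 60, exact 95% binomial interval 27.6% to 53.5%), and none of 143 cells in cluster 0 did. That allows a share of up to 2.10% of cells with a UMI (3 of 143; the exact 95% upper limit is 2.55%), and sets no limit on cells expressing the gene below detection. The cells of cluster 2 were deeper, at a median of 4230 UMIs per cell, where cluster 0 had 1064. Thinned to 500 UMIs per cell, the share was 9.94% in cluster 2 (58 cells) and 2.24% in cluster 1 (59 cells), and it stayed at 0 in cluster 0. No cell carried Il34 together with Csf1r, and none carried it together with Csf1. The Il34 cells were rich in myelin genes: the Schwann list took a median of 5.20% of their UMIs and never less than 0.689%. Within these cells the gene was uneven, since 9 cells with at least 3 UMIs held 46 of the 69 (66.7%) and the highest cell had 8.

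Library by library, Il34 in cluster 2 stood at 359 CPM (238 to 519, exact 95% Poisson interval, 28 UMIs in 19 cells) in SD replicate 1. SD replicate 2 had 347 CPM (202 to 556, 17 UMIs in 10 cells) and SD replicate 3 had 241 CPM (78.3 to 562, 5 UMIs in 6 cells). HFD replicate 1 had 401 CPM (147 to 872, 6 UMIs in 3 cells, 5 of them in 1 cell) and HFD replicate 2 had 104 CPM (47.4 to 197, 9 UMIs in 22 cells). HFD replicate 2 was thus the lowest library and HFD replicate 1 the highest, and the diets overlapped.

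**Figure D1:**
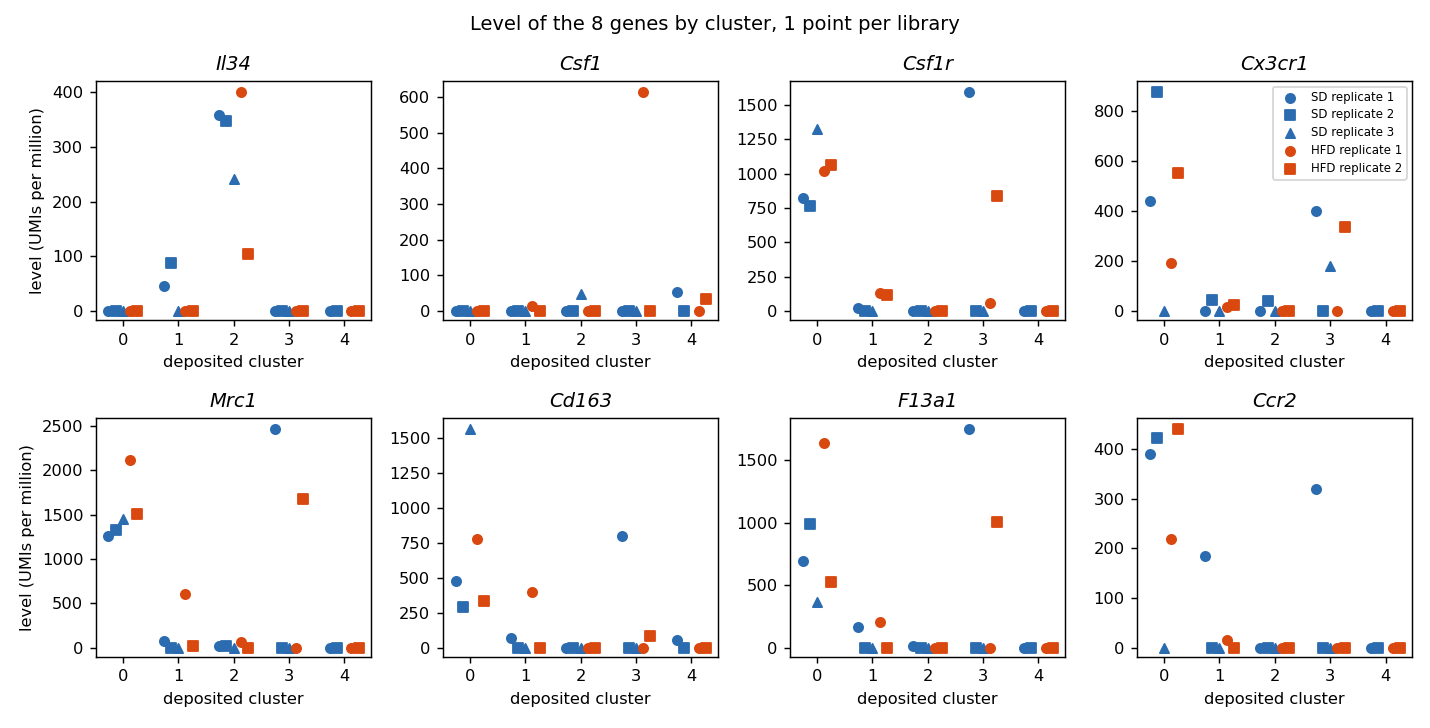
Level of each of the 8 genes (CPM, vertical axis, its own scale in each panel) in the 5 deposited clusters (horizontal axis), 1 point per library, blue for SD and orange for HFD. Il34 is high in cluster 2 and absent from cluster 0, and the receptor and residency genes are high in cluster 0 and, in some libraries, in the few cells of cluster 3.

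Csf1 was rarely seen, with 15 UMIs in 5 of 364 cells. Of these, 11 (73.3%) came from 1 neutrophil-like cell of HFD replicate 1 in cluster 3. The other 4 UMIs were single counts, in a cell of cluster 4 in SD replicate 1 and another in HFD replicate 2, a cluster 2 cell of SD replicate 3, and a neutrophil-like cluster 1 cell of HFD replicate 1 that also held 3 Csf1r UMIs. Both cluster 4 cells came from the cluster led by fibroblast genes. Cluster 0 held none of the ligand's UMIs, with the same floor of 5.15 CPM as for Il34. Csf1 passed the filter on low counts in no main diet comparison. Without that filter its log2 fold change on HFD over all cells was 2.25 ± 1.36 (edgeR adjusted p = 0.880), with 12 of the 15 UMIs in HFD replicate 1, and in clusters 1 and 2 it was 0.21 ± 2.03 (adjusted p = 0.986) on 2 UMIs.

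Csf1r was the counterpart of Il34: 558 of its 604 UMIs (92.4%) lay in cluster 0 and none in cluster 2. In cluster 0 its level was 822 CPM in SD replicate 1, 763 in SD replicate 2, 1327 in SD replicate 3, 1019 in HFD replicate 1 and 1062 in HFD replicate 2, a mean of 999 ± 223 CPM (SD, n = 5). SD replicate 3, the highest, rested on 8 cells and 11 UMIs (95% interval 662 to 2374), and SD replicate 2 was the lowest. The pooled level of 959 CPM was at least 79.7-fold higher than the floor of cluster 2 (12.02 CPM) and at least 30.0-fold higher than that of cluster 4 (31.9 CPM). A Csf1r UMI was found in 84 of 143 cells (58.7%, exact 95% binomial interval 50.2% to 66.9%), in 0 of 60 cells of cluster 2, and, thinned to 500 UMIs, in 33.7% of cluster 0 cells.

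Outside cluster 0, 10 cells carried Csf1r, 5 in cluster 1 and 5 in cluster 3. Of these, 3 were neutrophil-like, with 1 to 3 Csf1r UMIs each and none of Mrc1, Cd163 or F13a1. Another 6 carried at least 6 of 12 macrophage markers (the list without the members Csf1r, Mrc1 and Cx3cr1), where the median cell of cluster 0 carried 7 and that of clusters 1 and 3 carried 0. The clearest was a cluster 1 cell of HFD replicate 1 with 6 Csf1r, 27 Mrc1, 8 Cd163 and 14 F13a1 UMIs and 11 of the 12 markers. No cell of the 10 had more than 0.0972% of its UMIs in Schwann genes. The 2 cells of cluster 3 in SD replicate 1 and 1 in HFD replicate 2 likewise held 8 to 12 Csf1r and 15 to 20 Mrc1 UMIs each.

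The residency genes were in cluster 0 as well, with 88.4% to 94.1% of their UMIs there. With libraries weighted equally the share of Cx3cr1 was 75.8%, since the 1 Cx3cr1 UMI of SD replicate 3 lay in cluster 3, and the other 4 genes were at 91.9% to 95.1%. Mrc1 led with 966 UMIs and 1531 ± 341 CPM (mean ± SD, n = 5 libraries, as for the next values), and its libraries ranged from 1255 CPM in SD replicate 1 to 2115 in HFD replicate 1. F13a1 stood at 842 ± 501 CPM and Cd163 at 689 ± 527. Both varied more between libraries than Mrc1: F13a1 ran from 362 CPM in SD replicate 3 to 1636 in HFD replicate 1, and Cd163 from 292 CPM in SD replicate 2 to 1568 in SD replicate 3. The values of SD replicate 3 rest on 8 cells. Its F13a1 level is that of 3 counts, and its Cd163 level comes from 13 UMIs (95% interval 835 to 2681 CPM), 12 of them in 1 cell. Cx3cr1 stood at 412 ± 337 CPM and Ccr2 at 295 ± 187. These were at 0 in the 8 cluster 0 cells of SD replicate 3, where 3 counts would be 362 CPM. In the order Mrc1, Csf1r, F13a1, Cd163, Cx3cr1 and Ccr2, each pair of neighbours had overlapping ranges over libraries. Compared within a library, Mrc1 was above Csf1r in every library, most narrowly in SD replicate 3 (1447 against 1327 CPM). UMIs count 3' ends, so these levels do not scale with transcript length.

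Cluster 2 held 3 UMIs of Mrc1, 2 of Cx3cr1, 1 of F13a1 and none of Cd163 or Ccr2. Cd163 in cluster 0 was at least 45.9-fold higher than the cluster 2 floor, and Ccr2 at least 27.9-fold higher. By share of cells in cluster 0, Mrc1 was found in 60.8%, F13a1 in 57.3%, Cd163 in 42.7%, Cx3cr1 in 36.4% and Ccr2 in 23.8%. These shares follow depth: at 500 UMIs per cell they were 45.2%, 33.6%, 18.8%, 10.97% and 11.04%.

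The 250 bases before the start of Mrc1 and of F13a1 are shown because these are the genes whose levels went most closely together among macrophages, as described next for single cells. The sequences are from RefSeq on GRCm38.p6, 5′ to 3′ on the strand of the gene. Capitals mark each GAGGAA or, on the other strand, TTCCTC, the purine-rich core recognised by PU.1, a transcription factor of the macrophage lineage.
Mrc1, chr2:14229164-14229413, plus strand: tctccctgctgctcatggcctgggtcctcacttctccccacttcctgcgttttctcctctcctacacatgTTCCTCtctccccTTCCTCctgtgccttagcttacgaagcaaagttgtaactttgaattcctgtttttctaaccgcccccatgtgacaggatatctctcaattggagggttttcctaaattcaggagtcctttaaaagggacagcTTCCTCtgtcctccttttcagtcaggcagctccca
F13a1, chr13:37050245-37050494, minus strand: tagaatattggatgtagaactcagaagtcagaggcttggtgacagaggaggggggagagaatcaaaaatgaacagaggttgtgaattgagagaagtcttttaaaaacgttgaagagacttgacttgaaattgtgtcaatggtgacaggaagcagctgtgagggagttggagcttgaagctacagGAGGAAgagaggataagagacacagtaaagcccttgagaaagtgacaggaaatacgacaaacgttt
The Mrc1 window held 3 such matches, all as TTCCTC, and the F13a1 window held 1, as GAGGAA, 66 bases before the start. A window before a second, inner start of F13a1 held none. On either strand, 23.3% of the 32851 windows of this length in the table held the motif, so a match is common. The longer GAGGAAGT, found in 2.44% of windows, was in neither. The windows of Csf1, Cd163, Cx3cr1 and Ccr2 held no GAGGAA, which says only that these letters are not in those windows.

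To see which genes shared a cell, the 63 cells of cluster 0 with at least 2000 UMIs were examined (median 8796 UMIs, 91.4% of the cluster's UMIs). The other 80 cells had a median of 580.5. Csf1r was found in 60 of the 63, Mrc1 in 59, F13a1 in 56, Cd163 in 47, Cx3cr1 in 46 and Ccr2 in 29. Nearly all of these cells thus carried the receptor and the mannose receptor, and all 56 cells with F13a1 also had Mrc1. Of the 63 cells, 45 carried Mrc1, Cd163 and F13a1, of which 32 also had Cx3cr1, and 11 carried all 5 residency genes. Only 2 had Cx3cr1 without any of Mrc1, Cd163 and F13a1, and 1 had none of the 5. Cx3cr1 and Ccr2 were found together in 19 cells, as were Ccr2 and Cd163. The cells came from 5 libraries (16, 7 and 1 on SD, 24 and 15 on HFD), and cells of a library share their source.

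Mrc1 and F13a1 went together. Over the 63 cells their log2 levels (CPM + 100) had a Pearson r of 0.71 and a Spearman rho of 0.64, given as a description of cells that share libraries and depth. Within the 4 libraries with more than 1 such cell, r was 0.76, 0.90, 0.61 and 0.58. In HFD replicate 1, however, rho was 0.14 against its r of 0.61. Cd163 paired with F13a1 at r = 0.54 and with Mrc1 at r = 0.47. Ccr2 with Mrc1 was at r = -0.11 over the 63 cells. Cx3cr1 with Mrc1 was at r = -0.01, and by library at -0.12 and 0.11 in SD replicates 1 and 2, 0.00 in HFD replicate 1 and 0.56 in HFD replicate 2, where rho was 0.51 and Mrc1 with F13a1 had an r of 0.58.

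Pooled over cells, those with a Ccr2 UMI had less Mrc1, F13a1 and Cd163. Their pooled Mrc1 level was 1188 CPM against 2156 in cells without one (29 and 34 cells, median depth 8796 and 8416 UMIs). F13a1 stood at 786 against 1279 CPM and Cd163 at 407 against 714 CPM, and each of the 3 was lower in the Ccr2 cells of all 4 libraries that held both kinds. The cells with most F13a1 in HFD replicate 1 (72 UMIs) and SD replicate 1 (39 UMIs) had no Ccr2 UMI. Cell by cell, F13a1 with Ccr2 was at r = -0.06, and by library at -0.05 and 0.29 on SD and 0.06 and 0.06 on HFD. F13a1 was found in 93.1% of Ccr2 cells and 85.3% of the rest, so less F13a1 in the typical Ccr2 cell was not shown. Mrc1 with Ccr2 was at r = 0.13 and 0.03 on SD and -0.27 and -0.14 on HFD. The rho of this pair was -0.27 over all cells and -0.58 in HFD replicate 1. Mrc1 was found in 100% of Ccr2 cells and 88.2% of the rest, so less Mrc1 in the typical Ccr2 cell was not shown on SD. Cd163 with Ccr2 was at r = -0.33 and -0.03 on SD and 0.00 and -0.16 on HFD. Csf1r stood at 973 against 984 CPM and Cx3cr1 at 423 against 437. The 9 other monocyte genes of the list summed to 586 CPM in Ccr2 cells and 60.4 CPM in the rest, and were higher in the Ccr2 cells of 4 of 4 libraries. In HFD replicate 1, 1 cell held 64 of the 147 monocyte UMIs of the Ccr2 cells, and without it their level was 346 CPM. The border-associated list stood at 6089 against 7108 CPM, higher in 2 libraries and lower in 2.

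Cells with Cd163 (47 of 63) carried more Mrc1, 1880 against 1119 CPM, more F13a1, 1253 against 381 CPM, and more Cx3cr1, 473 against 294 CPM, each in 4 of 4 libraries. A list of microglia-like genes summed to 1629 against 778 CPM in the same direction in 4 of 4 libraries, as did the dendritic cell list, at 569 against 381 CPM. The border-associated list (6810 against 6040 CPM) was higher in 2 libraries and lower in 2, and Ccr2 (263 against 651 CPM) was higher in 1 and lower in 3. In SD replicate 2 the side without Cd163 was 1 cell. Cell by cell, Cx3cr1 with Cd163 was at r = -0.05, and by library at 0.04 and -0.05 on SD and -0.06 and 0.33 on HFD. Cx3cr1 was found in 72.3% of Cd163 cells and 75% of the rest, so more Cx3cr1 in the typical Cd163 cell was not shown. Read the other way, cells with Cx3cr1 had less Cd163 (525 against 710 CPM), lower in 3 libraries and higher in 1. Cells with Cx3cr1 differed less evenly. Their F13a1 level was 858 CPM against 1649 in cells without it, but 2 libraries went one way and 2 the other, and Csf1r was 979 CPM in both.

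**Figure D2:**
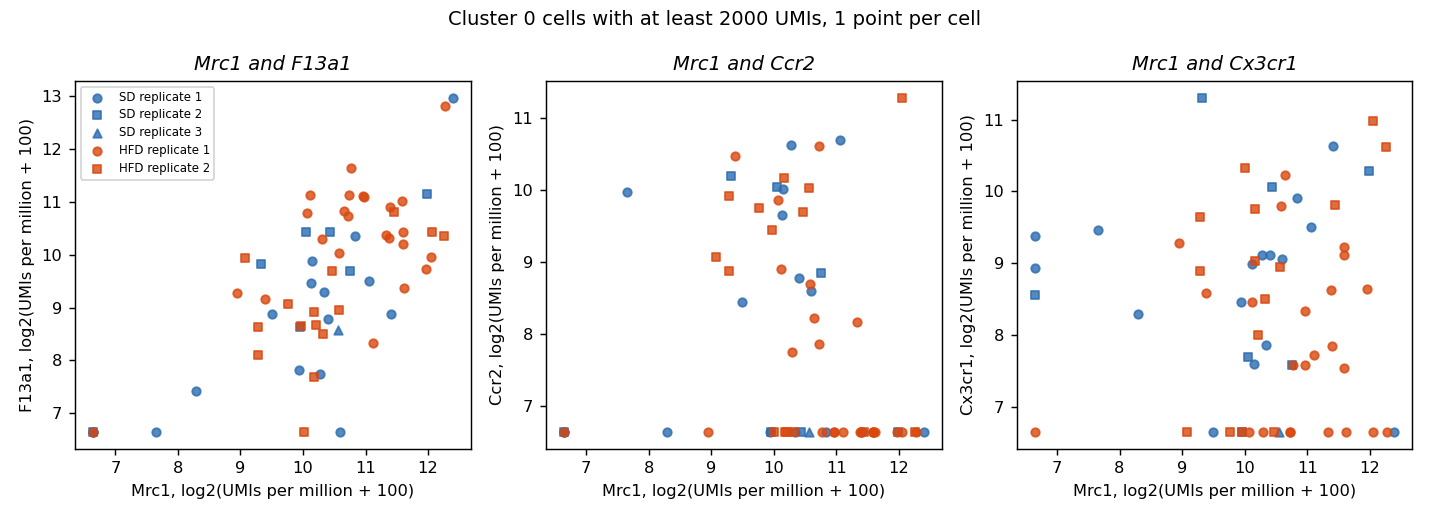
Levels in single cluster 0 cells with at least 2000 UMIs, as log2(CPM + 100), 1 point per cell, colour for diet and symbol for replicate. Over all cells r with Mrc1 is 0.71 for F13a1, -0.11 for Ccr2 and -0.01 for Cx3cr1 (0.56 in HFD replicate 2), and points on the lowest line have no UMI of the gene.

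By likeness over the 19 sums of a cluster within a library with at least 5 cells (Pearson r of log2(CPM + 50), 3830 genes), the genes most like Il34 were Smco3 (0.96), Hspa12a (0.96), Fmn2 (0.95) and Slc36a2 (0.95). Those most like Csf1r were Adgre1 (0.99), Ctss (0.98), Fcgr3 (0.98) and C1qc (0.97), of which Adgre1 encodes the macrophage antigen F4/80. Mrc1 was closest to Fcrls (0.99), C1qb, C1qc and Pf4 (0.98 each), and F13a1 to Ly86 and C1qb (0.98 each), Mrc1 and Fcrls (0.97 each). Cd163 was closest to Ptpro, Fcgr3, Lmo2 and Pf4 (0.94 each). Cx3cr1 had Epsti1 (0.89), Adap2 and Cd33 (0.87 each) and Siglech (0.86), and those like Ccr2 included Wfdc17 (0.95), Ltc4s and Serpinb8 (0.94 each). The sums of a library share its preparation, and the clusters were built on these genes.

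The series compared the diets, and none of the 8 genes passed the threshold in any main comparison. Counts were summed per library and tested with edgeR's quasi-likelihood test, adjusted by Benjamini-Hochberg over all genes tested. Over all cells 5 of 5510 genes passed (0.0907%), in cluster 0 1 of 2108 (0.0474%) and in clusters 1 and 2 together 38 of 1779 (2.14%). Csf1 was below the filter on low counts. Without the filter on low counts Mrc1 (3.93, adjusted p = 0.0041) and Cd163 (3.93, adjusted p = 0.0353) passed in clusters 1 and 2. Without HFD replicate 2 their log2 fold changes there were 5.36 and 5.40. Cluster 1 of HFD replicate 1 held 41 Mrc1 and 27 Cd163 UMIs, each gene in 2 cells. The cluster 1 cell of that library described above held 27 of these Mrc1 and 8 of these Cd163 UMIs, and another cell held 19 Cd163 UMIs. At an unadjusted p under 0.05, Il34 and Mrc1 were 2 of 7 tested over all cells (4.39% of all genes), 0 of 6 in cluster 0 (6.07%) and 0 of 1, Il34, in clusters 1 and 2 (7.98%). With 3 libraries against 2, or 2 against 2 in cluster 0, a p that misses the threshold does not show that levels were equal.

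Over all cells, Il34 stood at 115, 133 and 131 CPM (normalized by TMM, as are all values of these fits) in the SD libraries and at 22.7 and 31.6 CPM in the HFD libraries. Both HFD libraries lay below all SD libraries. The log2 fold change was -2.17 ± 0.60 (standard error; unadjusted p = 0.0037, adjusted p = 0.755). Among all genes tested, 9.44% had HFD libraries entirely below SD. With sequencing run as a term the adjusted p was 0.115. In such sums, fewer cells of a type and less RNA per cell cannot be told apart.

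The HFD libraries were low in different ways. Cluster 2 took 26.3%, 31.7% and 55.0% of the UMIs of the SD libraries, 4.28% of HFD replicate 1 and 27.4% of HFD replicate 2. HFD replicate 1 thus held few cluster 2 cells at a high Il34 level (3 cells, 401 CPM), and HFD replicate 2 had a cluster 2 share like that of SD replicates 1 and 2 with the lowest Il34 level (22 cells, 104 CPM). The interval of HFD replicate 2 (47.4 to 197 CPM) lay below those of SD replicates 1 and 2 and overlapped that of SD replicate 3.

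In clusters 1 and 2 together, unnormalized Il34 was 247, 265 and 210 CPM on SD and 72.1 and 68.8 CPM on HFD. Every SD library was above both HFD libraries, a difference of means of -170 CPM (240.7 ± 28.4 on SD, SD, n = 3; 70.5 ± 2.29 on HFD, n = 2), with an exact two-sided permutation p of 0.1, the smallest that 3 against 2 allows. Within run 1 the difference was -184 CPM and within run 2 -141 CPM. Without the neutrophil-like and haemoglobin-rich cells (the latter with at least 20% of UMIs from globin genes), which sat in cluster 1 and left 8 cells in HFD replicate 1, the HFD values were 132 and 72.2 CPM and the difference -139 CPM (exact permutation p = 0.1). Those 8 cells still included a cluster 1 cell of 10180 UMIs with 11 macrophage markers and 0.0098% of its UMIs in Schwann genes. The HFD replicate 1 value is thus not one of Schwann cells alone, and the part of that cell in it was not tested. In cluster 2 alone the means were 316 ± 64.9 (n = 3) and 252 ± 210 CPM (n = 2; exact permutation p = 0.7), so a level difference within cluster 2 cells was not shown. When each cell was weighted equally, the difference over clusters 1 and 2 was -46.8 CPM (exact permutation p = 0.6). The edgeR fit on the same clusters gave -1.27 ± 0.67 on the log2 scale (adjusted p = 0.663), with no overlap of the diets, as for 9.05% of genes lower on HFD there, and that on cluster 2 alone -0.81 ± 0.69.

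**Figure D3:**
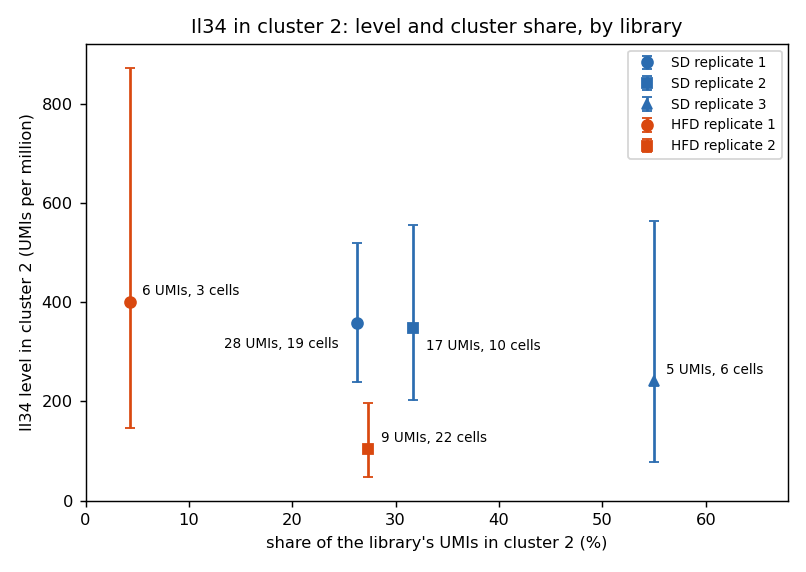
Il34 level in cluster 2 (CPM, vertical axis, bars are exact 95% Poisson intervals for counting error) against the share of the library's UMIs that cluster 2 holds (percent, horizontal axis), 1 point per library. HFD replicate 1 combines a share of 4.28% with a level of 401 CPM on 6 UMIs, and HFD replicate 2 a share of 27.4% with 104 CPM.

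Csf1r over all cells was 532, 328 and 288 CPM on SD and 901 and 593 CPM on HFD, both HFD libraries above all SD libraries (log2 fold change 0.94 ± 0.50, adjusted p = 0.943; 14.3% of genes tested lay entirely higher on HFD). Cluster 0 also took a larger part of the UMIs in HFD replicate 1 (64.0%) than in the other 4 libraries (21.97% to 48.4%), and its part in these values was not tested. Within cluster 0, over all libraries, Csf1r averaged 971 ± 310 CPM in the SD libraries (n = 3) and 1041 ± 30.3 CPM in the HFD ones (n = 2), a difference of 70.2 CPM (exact permutation p = 1). The sign of that small difference changed without SD replicate 1 (-3.89 CPM) or SD replicate 2 (-33.8 CPM).

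Mrc1 over all cells was 823, 580 and 314 CPM on SD and 1949 and 842 CPM on HFD, again with no overlap (log2 fold change 1.26 ± 0.53, unadjusted p = 0.0368, adjusted p = 0.943). In cluster 0, where SD replicate 3 was left out with 8 cells, it was 1557 and 1590 CPM on SD and 2477 and 1780 on HFD (0.44 ± 0.26, adjusted p = 0.876). Csf1r in the same fit was 1020 and 911 CPM on SD and 1194 and 1252 on HFD (0.33 ± 0.28, adjusted p = 0.909). Both genes were thus higher in the HFD libraries without overlap, but so were 19.8% of the genes tested in cluster 0, and 18.2% were lower without overlap.

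The other residency genes overlapped between diets. F13a1 in cluster 0 was 865 and 1182 CPM on SD and 1917 and 618 on HFD, so the HFD libraries stood on either side of SD. Cd163 was 588 and 349 against 911 and 390 CPM. Without HFD replicate 1 the log2 fold change of F13a1 turned from 0.33 to -0.71 and that of Cd163 from 0.45 to -0.30, and over all cells these genes turned the same way. Cx3cr1 was 545 and 1047 CPM on SD and 225 and 650 on HFD (-0.85 ± 0.49, adjusted p = 0.876). With a library left out its change ran from -1.77 (without HFD replicate 2) to -0.25 (without HFD replicate 1). Ccr2 was 484 and 504 against 257 and 520 CPM (-0.37 ± 0.40, adjusted p = 0.943), a value of 0.08 without HFD replicate 1.

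**Figure D4:**
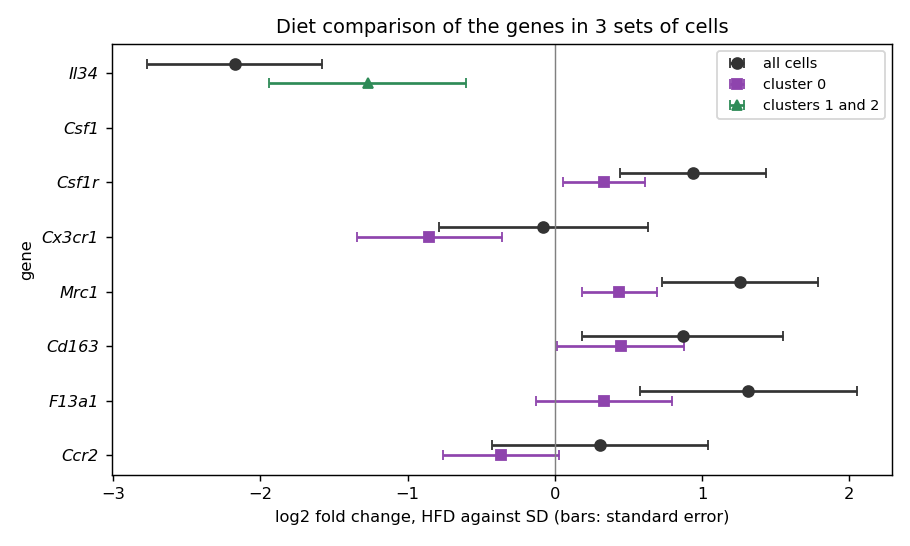
Log2 fold change of each gene on HFD against SD (horizontal axis, bars are standard errors) in 3 sets of cells: all cells, cluster 0, and clusters 1 and 2. No gene passed the adjusted threshold in any set, Il34 lies lowest at -2.17 over all cells, and Csf1 has no point because it was below the filter on low counts.

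Other genes of the pathway were read from lists, and no member of the 5 pathway lists passed in all cells or in cluster 0. Over all cells 15 of 20 tested genes of Csf1r signalling (22 listed) had a positive log2 fold change and 5 a negative one, with a median of 0.47 against 0.02 for all genes. Among them were Syk (1.41 ± 0.71, adjusted p = 0.943), a tyrosine kinase, and Gab2 (1.12 ± 0.58), an adaptor protein. All 12 tested macrophage lineage transcription factors had positive values (median 0.78), among them Cebpb (1.76), Runx1 (1.35) and Spi1 (1.16), which encodes PU.1. All 12 tested border-associated genes did too (median 0.85), with the chemokine Ccl8 at 2.24, Clec10a at 1.54 and Igf1 at 1.22. Of the other ligands and receptors, 10 of 12 were positive, with the neutrophil receptor Csf3r at 3.53 (adjusted p = 0.404), and of the microglia-like genes 4 of 9. Beside these, 13 of 15 macrophage markers were positive (median 0.68) and 12 of 13 myelinating Schwann genes negative (median -1.32). The macrophage list includes Csf1r (0.94) and Mrc1 (1.26), both positive, and Cx3cr1 (-0.08), which was negative. All 5 tested neutrophil markers were positive and 3 of them passed (list median 10.5). The part of these cell type markers in the pathway values was not tested.

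Inside cluster 0 the lists gave different splits. Csf1r signalling had 8 positive and 5 negative genes (median 0.08, against 0.01 for all genes), the transcription factors 7 and 5 (0.19), and the border-associated genes 7 and 5 (0.21). The other ligands and receptors had 7 and 1 (median 0.68). Macrophage markers had 3 and 12 (median -0.33), and their part in these values was not tested. That list includes Csf1r (0.33) and Mrc1 (0.44), which were among its positive values, and Cx3cr1 (-0.85), which was among its negative ones. The microglia-like genes had 3 and 4 (median -0.25), among them Trem2 (-0.85 ± 0.37, adjusted p = 0.79) and Siglech (-0.72). The chemokines Ccl12 and Ccl8 were at 3.04 ± 1.12 (edgeR adjusted p = 0.79) and 1.79 ± 0.69 (adjusted p = 0.758). On standard diet the standard deviation over libraries exceeded the mean for both, at 190 ± 269 CPM for Ccl12 and 60.5 ± 85.6 CPM for Ccl8. In clusters 1 and 2, 1 listed transcription factor passed, Cebpb (3.90 ± 0.76, adjusted p = 0.0028 by edgeR), while 4 of 4 tested neutrophil genes passed there, as did 2 of 3 tested macrophage markers (list median 3.78), and their part in the Cebpb value was not tested.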

How the data were processed

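Raw UMI counts were deposited by the authors as a table of genes by cells, with a second table giving each cell's library, cluster number and cluster name. The deposited percent of mitochondrial UMIs per cell was not used for results. The submitters' processing notes name Cell Ranger 3.1.0 and mm10. How cells were filtered, and doublets treated, before deposit is not stated in those notes or the labels, and no doublet caller was run. Control libraries of the tables were taken as SD, and the 2 project numbers in the library key as sequencing runs (run 1: SD replicates 1 and 2, HFD replicate 1; run 2: SD replicate 3, HFD replicate 2).

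The 8 genes and all lists were chosen with earlier results of these data known. For each library, counts were added up over all cells, cluster 0, or clusters 1 and 2, using libraries with at least 10 such cells. The sums were tested with edgeR 4.0.16 (R 4.3.3; filterByExpr, TMM, robust quasi-likelihood) at an adjusted p of 0.05. Single values were compared by exact two-sided permutation of libraries. Levels elsewhere are CPM over all UMIs. Intervals are exact at 95%, and they and floors (3 counts) cover counting error only. Shares were thinned analytically to fixed depths. The 2000-UMI minimum, the neutrophil-like and haemoglobin-rich cell rules the shared barcode ends and the monocyte value without 1 cell were set after seeing the data. Named were the 8 genes, up to 3 genes of lowest p per pathway list and fit, and the 4 most alike per gene (at least 50 UMIs); Cebpb in clusters 1 and 2 was named after its value was seen. Some genes that this rule selects are not reported here. Alternatives were RLE scaling, DESeq2 1.42.0, no low-count filter, a replicate block, run as a term, and leaving out each library or doubtful cells. The pipeline was tested on simulated counts.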

Additional observations from a re-analysis of the deposited data

Results flagged for a closer look

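Csf1 in cluster 3 stood at 369 CPM over the HFD libraries and at 0 of 18920 UMIs over the SD libraries, where 3 counts would be 159 CPM. It was singled out because the HFD level lay above its floor of 3 counts (101 CPM) and its 95% interval (184 to 659 CPM) lay above the SD level of 0. The 95% upper limit on SD was 195 CPM, so the intervals of the diets overlapped. All 11 UMIs came from 1 neutrophil-like cell of HFD replicate 1, so the value describes that cell, and the difference between diets in cluster 3 was not tested.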

How the results depend on the processing

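No alternative run brought any of the 8 genes past the threshold, except that Mrc1 and Cd163 passed in clusters 1 and 2 without the low-count filter or without HFD replicate 2, where neither was tested in the main comparison. Among the genes' log2 fold changes under alternatives, 159 kept their direction and side of the threshold (genes also tested in the main comparison) and 11 changed sign. Counts of genes called moved more. Over all cells 5 became 9 with DESeq2, 47 without the low-count filter, 57 with run as a term, 8 without barcodes with a shared end, and 0 without neutrophil-like cells, with or without haemoglobin-rich cells (edgeR; unadjusted p under 0.05 for 121 genes upward and 76 downward without the former). Leaving out a library gave 0 (without SD replicate 1) to 54 (without HFD replicate 2). In cluster 0, 1 became 4 without the filter and 2 to 26 with a library left out. In clusters 1 and 2, 38 became 91 without the filter, 106 with run, 4 without neutrophil-like cells, 2 also without haemoglobin-rich cells, and 15 to 199 with a library left out. Cluster 2 alone gave 0 by edgeR (12 higher and 4 lower unadjusted). A library left alone in its diet is assumed to vary like the others. Replicate numbers as a replicate block gave 33, 5 and 87 genes. With 2 shared numbers, replicate differences correlated at 0.16, -0.04 and 0.19, so the numbers were not taken to pair samples.

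Over all cells, the log2 fold change of Cx3cr1 (-0.08) was 0.031 without the filter, 0.19 with run, 0.32 without HFD replicate 1, and -0.50 to 0.48 with a library left out. With a library left out, Cd163 ranged from -0.53 to 1.64 and F13a1 from -0.15 to 2.10, both lowest without HFD replicate 1, and Ccr2 (0.30) from -0.11 (without SD replicate 3) to 0.88, with -0.10 under the block. In cluster 0 the ranges were -0.30 to 0.95 for Cd163, -0.71 to 0.93 for F13a1 and -0.94 to 0.081 for Ccr2, each with HFD replicate 1 left out at the end that changed sign. Csf1r in cluster 0 (70.2 CPM) was -377 CPM as a mean over cells, -265 within run 2, and -33.8 to 248 with a library left out, including -3.89 without SD replicate 1. For these, the cause was not tested. Depth limits Csf1 (15 UMIs) and Il34 (69 UMIs), and SD replicate 3 had 8 cells in cluster 0.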
